A study of Rattus norvegicus with 6 samples.

Results

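The genes of the inflammasome and of pyroptosis described here are 10: the sensors Nlrp3, Nlrc4 and Aim2, the adaptor Pycard, the caspases Casp1 and Casp4, the pore-forming protein Gsdmd, the cytokines Il1b and Il18, and the receptor antagonist Il1rn. They were chosen by symbol, and each matched 1 row among the 31368 genes of the count table. RNA had been sequenced from renal tissue of wild-type male Sprague-Dawley rats, placed at 8 weeks of age by the series' design text, in 6 libraries: 3 of the control group, labelled Sham, and 3 of the group labelled CKD (chronic kidney disease). The procedure behind either label and the time after it are not given in the sources used here. The labels do not tie the libraries to separate animals, so p-values measure the spread between these libraries, which may be technical.

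An inflammasome is a protein complex of the innate immune system. A sensor that has met a microbial or damage signal gathers the adaptor ASC, the product of Pycard, which in turn recruits caspase-1. Caspase-1 cleaves the precursors of the cytokines IL-1 beta and IL-18 and cuts gasdermin D, whose freed part opens pores in the plasma membrane and can end in lytic cell death, called pyroptosis. In rodents caspase-11, the product of Casp4, cuts gasdermin D in response to bacterial lipopolysaccharide inside the cell. In kidney these proteins are known mainly from macrophages and dendritic cells, and IL-18 also from tubular epithelium. Messenger RNA was measured here, and cleavage, secretion and pore formation were not.

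Pycard and Nlrp3 rose in CKD. Pycard rose 7.46-fold, from 1.11 ± 0.20 to 8.29 ± 3.01 CPM (counts of the gene over the TMM-scaled total of its library, set to a common total; mean ± SD, n = 3 per group), and Nlrp3 rose 9.53-fold, from 0.77 ± 0.47 to 7.34 ± 2.53 CPM. Nlrc4, Aim2, Casp1, Casp4 and Gsdmd were also above every Sham library in every CKD library, at 2.25-fold to 3.12-fold, without passing the test. The 2 cytokines and the antagonist overlapped between the groups, and Il18 alone had a negative fold change. By edgeR's quasi-likelihood test at an adjusted p of 0.05, 2 of the 10 members were higher and 0 lower, where 3.82% of the 15371 genes tested were called, 2.67% higher and 1.15% lower. At an unadjusted p under 0.05 there were 7 members, all higher, where 23.8% of all genes tested passed, 13.5% higher. These shares are also the background of the unadjusted counts given for other lists in this same fit, and alternative fits have their own. The CKD libraries lay above the Sham libraries without overlap in 7 of the 10, where 18.8% of all genes tested did so. The median log2 fold change of the members was 1.26, beside -0.01 over all genes tested.

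The calls of Pycard and Nlrp3 depended on the libraries and the tool. Without Sham 2, Sham 3, CKD 1 or CKD 2 edgeR called 0 members (6, 7, 6 and 4 at an unadjusted p under 0.05, where 27.0%, 21.7%, 14.8% and 14.6% of all genes passed), and in the same fits it called 2, 7, 0 and 0 genes in all, so these zeros are those of the whole table and say nothing particular about the members. Without Sham 1 or CKD 3 it called Pycard and Nlrp3, where 10.8% and 2.61% of all genes were called. limma-voom called 0 members (7 at an unadjusted p under 0.05, where 23.4% of all genes passed; 1.07% of all genes called), as did edgeR with the replicate number as a block (6 at an unadjusted p under 0.05, where 18.7% of all genes passed; 10 genes called in all). DESeq2, and edgeR with library totals as the only scaling, each called 6 members, namely Pycard, Nlrp3, Nlrc4, Casp1, Casp4 and Gsdmd, all higher, where they called 13.9% and 14.5% of all genes (7.69% and 13.3% higher). The same 9 members, all but Il18, had a positive fold change in each of the 16 alternative fits.

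**Figure D1:**
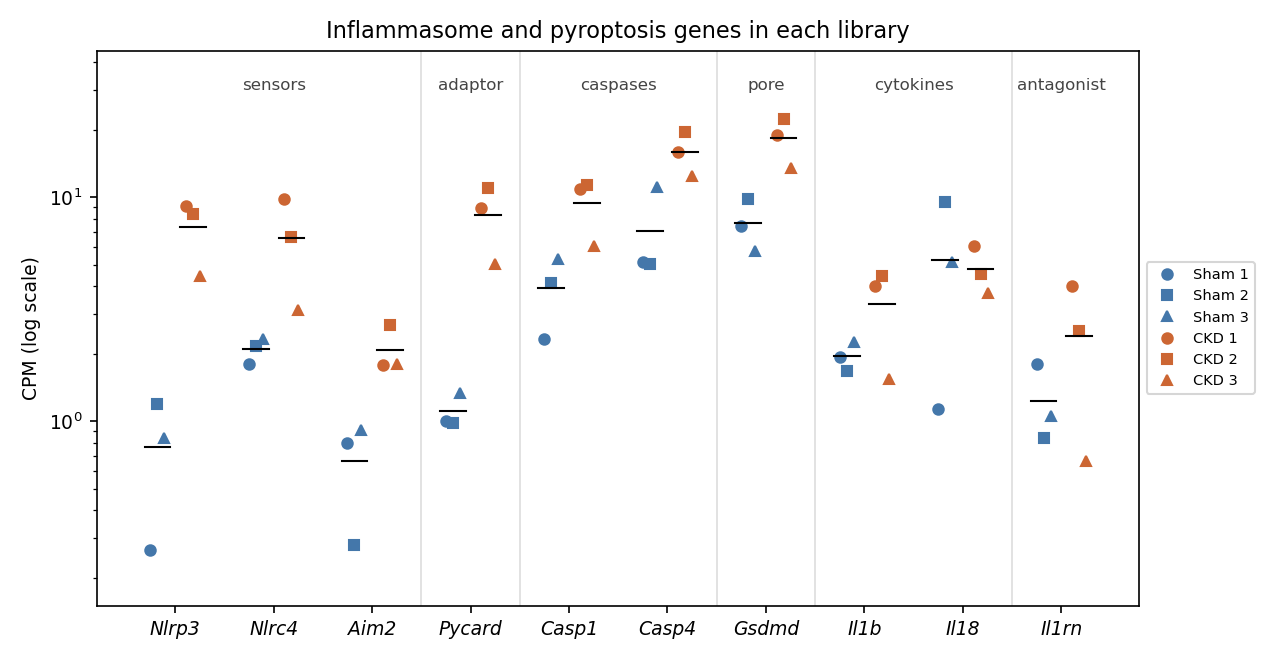
Level of each of the 10 members in each library, in CPM on a log axis, grouped by role; points are libraries and horizontal lines are group means. CKD points stand clear above Sham points for 7 members, from Nlrp3 to Gsdmd, and overlap them for Il1b, Il18 and Il1rn.

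The stretches upstream of 3 members show the sequence beside which the values below can be read: Nlrp3 and Pycard, which rose together, and Il1b, which did not pass. Each is the 250 bases before the start RefSeq's table gives for the gene (build GRCr8), 5′ to 3′ on the gene's strand, with matches to the motifs searched in capitals. The Nlrp3 stretch lies inside the gene's RefSeq interval, which begins further upstream, so it precedes a start within the gene; those of Pycard and Il1b do not. The stretch for Nlrp3 is at chr10:44827848-44828097 (plus strand), that for Pycard at chr1:192033420-192033669 (minus strand) and that for Il1b at chr3:137036582-137036831 (minus strand).
Nlrp3: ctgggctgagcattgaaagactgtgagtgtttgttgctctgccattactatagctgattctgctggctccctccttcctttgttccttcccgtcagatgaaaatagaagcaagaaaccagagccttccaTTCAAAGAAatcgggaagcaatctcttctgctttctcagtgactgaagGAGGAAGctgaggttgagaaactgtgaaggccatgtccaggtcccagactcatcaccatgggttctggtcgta
Pycard: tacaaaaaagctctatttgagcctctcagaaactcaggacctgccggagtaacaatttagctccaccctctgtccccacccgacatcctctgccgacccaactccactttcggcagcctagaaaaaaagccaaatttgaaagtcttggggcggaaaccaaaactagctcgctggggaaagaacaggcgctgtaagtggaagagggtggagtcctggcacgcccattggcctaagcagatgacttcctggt
Il1b: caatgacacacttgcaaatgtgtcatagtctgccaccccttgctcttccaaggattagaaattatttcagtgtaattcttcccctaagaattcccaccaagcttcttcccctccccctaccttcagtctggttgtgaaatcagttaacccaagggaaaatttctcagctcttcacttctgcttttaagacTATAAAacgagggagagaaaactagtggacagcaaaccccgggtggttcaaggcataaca
The motifs, searched on both strands, were the TATA box TATAAA, the AP-1 site TGANTCA, the STAT site TTCNNNGAA, the PU.1 core GAGGAAG and the interferon response element and the NF-kB site, given by their names alone. In the Nlrp3 stretch the capitals mark TTCAAAGAA, a STAT match from base -121 to -113, and GAGGAAG, a PU.1 match from -73 to -67, with base -1 just before the start. In the Il1b stretch they mark TATAAA from -60 to -55, and the Pycard stretch held 0 matches. RefSeq stretches were matched for 7 of the 10 members. Of those not printed, Aim2 held a PU.1 core and Il18 held 0 matches. Casp1 held a match to the interferon response element and Il1rn a match to the letters of the TATA box, each on the strand opposite to the gene's. The stretches of Aim2, Casp1 and Il1rn also lie inside their genes' RefSeq intervals, so each precedes a start within the gene. The matches did not overlap each other. Of 33469 rat stretches of this length 12.9% held the TATA box, 6.3% the AP-1 site, 7.7% the STAT site, 10.2% the PU.1 core, 3.4% the interferon response element and 3.5% the NF-kB site. A match is a run of letters and no evidence of binding.

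Sensors. Nlrp3, the sensor of potassium loss and membrane damage, was counted 4, 17 and 12 times in Sham 1, 2 and 3 against 190, 169 and 87 times in CKD 1, 2 and 3, or 0.27, 1.19 and 0.84 CPM against 9.17, 8.40 and 4.46 CPM. The lowest CKD library was 3.75 times the highest Sham library. Its log2 fold change was 3.25 ± 0.60 (approximate SE, derived from the test; edgeR adjusted p = 0.0399), the 281st smallest p of the 15371 genes. With so few counts in Sham the baseline is imprecise, and Sham 1 was the lowest of the 3.

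Nlrc4, the sensor that NAIP proteins engage once they have bound bacterial flagellin or secretion needles, was counted 27, 31 and 33 times in the Sham libraries against 204, 134 and 61 times in CKD. In CPM these were 1.80, 2.17 and 2.32 against 9.84, 6.66 and 3.12, so that the Sham libraries lay close together and the CKD libraries spread 3.15-fold. This gave a log2 fold change of 1.64 ± 0.48 (95% interval 0.52 to 2.76; edgeR adjusted p = 0.0929).

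Aim2, the sensor of double-stranded DNA in the cytosol, was the least abundant member per length in CKD, with 12, 4 and 13 counts in Sham against 37, 54 and 35 in CKD. The CPM were 0.80, 0.28 and 0.91 against 1.78, 2.68 and 1.79. The groups did not overlap, but the difference did not pass (log2 fold change 1.64 ± 0.56, edgeR adjusted p = 0.131).

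Adaptor. Pycard was even across the Sham libraries, with 15, 14 and 19 counts, and had 185, 220 and 98 in CKD. On the CPM scale this was 1.0, 0.98 and 1.34 against 8.92, 10.9 and 5.02, and the lowest CKD library stood at 3.75 times the highest Sham library. The log2 fold change of 2.90 ± 0.43 (SE; 95% interval 1.90 to 3.90) had the smallest adjusted p of the members (edgeR adjusted p = 0.0316) and ranked 87th of all genes. Pycard lies on chromosome 1 from 182601174 to 182602955 (minus strand) and Nlrp3 on chromosome 10 from 44328566 to 44352811 (plus strand) in the coordinates of the deposited table. The submitters' processing notes name Rnor_6.0, but the build of the table's coordinates is uncertain. There, neither gene was overlapped by another (0 overlapping genes each).

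For both genes the rise kept its direction in every alternative, while its size varied and the adjusted p crossed the threshold. Over the 16 alternatives the log2 fold change of Pycard ran from 2.66 to 3.32 and that of Nlrp3 from 2.79 to 3.68. The adjusted p of Pycard ran from 2.09e-07 in DESeq2 to 0.161 without CKD 1, and that of Nlrp3 from 3.27e-06 to 0.169 in the same fits.

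**Figure D2:**
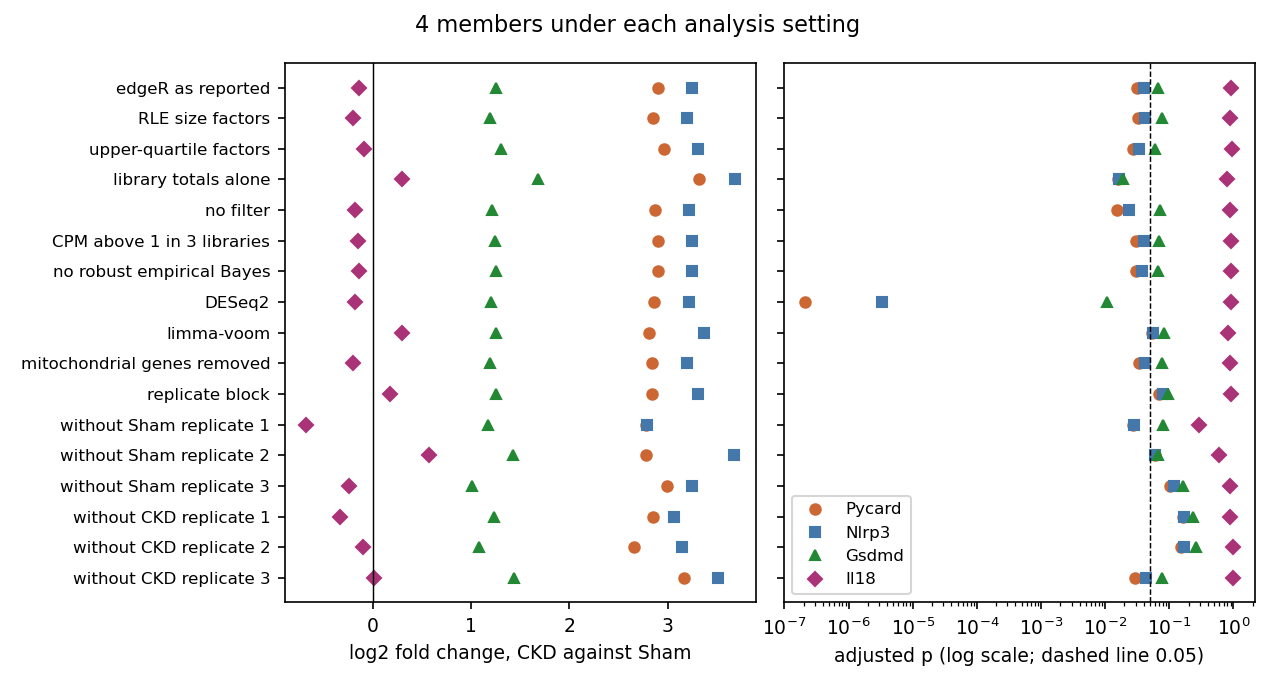
Log2 fold change (left) and adjusted p on a log axis (right) of Pycard, Nlrp3, Gsdmd and Il18 in the reported fit and in 16 alternatives, 1 row each. Pycard and Nlrp3 keep log2 fold changes of 2.66 or more throughout but pass the dashed line of 0.05 in 10 of the 16 alternatives, and Il18 lies on both sides of 0.

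Caspases and the pore. Casp1 and Casp4 are neighbours on chromosome 8, on the same strand with 1492 bases between them (2587831 to 2597383 and 2598876 to 2635092). Counts of Casp1 were 35, 59 and 75 in Sham against 225, 228 and 118 in CKD, or 2.33, 4.12 and 5.28 against 10.9, 11.3 and 6.04 CPM. Those of Casp4 were 77, 72 and 157 against 328, 391 and 242, or 5.13, 5.03 and 11.1 against 15.8, 19.4 and 12.4 CPM. In both genes Sham 3 was the highest Sham library and CKD 3 the lowest CKD library, and the gap between these was narrow, 1.15-fold for Casp1 and 1.12-fold for Casp4. Neither passed (log2 fold changes 1.27 ± 0.42 and 1.17 ± 0.38, edgeR adjusted p = 0.122 and 0.121).

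Gsdmd, the gasdermin of pyroptosis, had the highest mean CPM of the members in both groups. It was counted 111, 141 and 82 times in Sham against 393, 451 and 262 times in CKD, or 7.40, 9.85 and 5.77 against 19.0, 22.4 and 13.4 CPM, with the lowest CKD library 1.36 times the highest Sham library. The log2 fold change of 1.25 ± 0.31 came nearest to the threshold among the members that missed it (95% interval 0.52 to 1.98; edgeR adjusted p = 0.0672). Without 1 library at a time it stayed between 1.01 and 1.44.

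Cytokines and antagonist. Il1b, the precursor of IL-1 beta, stood at 29, 24 and 32 counts in Sham against 83, 89 and 30 in CKD, or 1.93, 1.68 and 2.25 against 4.0, 4.42 and 1.54 CPM. CKD 1 and CKD 2 were above every Sham library and CKD 3 was below all of them. The fitted difference was 0.76 ± 0.49 on the log2 scale, with a 95% interval of -0.39 to 1.91 (edgeR adjusted p = 0.387), which holds both a small fall and a rise of the size seen in Nlrc4. Il1a, the other agonist of the same receptor, had 0 counts in all 6 libraries, and 3 counts, the limit that a count of 0 allows, would be 0.145 to 0.211 CPM.

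Il1rn, the secreted antagonist that occupies the IL-1 receptor without signalling, had 27, 12 and 15 counts in Sham against 83, 51 and 13 in CKD. In CPM it was 1.80, 0.84 and 1.06 against 4.0, 2.53 and 0.67, so that CKD 3 was below all Sham libraries, as for Il1b, and CKD 1 was 6.01 times CKD 3. The log2 fold change of 0.96 ± 0.69 did not pass (95% interval -0.65 to 2.57; edgeR adjusted p = 0.439). The ratio of Il1rn to Il1b, each count divided by its gene's length, was 0.845, 0.462 and 0.432 in Sham and 0.906, 0.522 and 0.401 in CKD. The ratio differed by 0.06 on the log2 scale (CKD minus Sham), less than the SDs of 0.53 and 0.60 within the groups (exact two-sided permutation test, p = 0.9, where 3 against 3 cannot go below 0.1). The direction of that difference turned when Sham 2, Sham 3 or CKD 1 was left out.

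Il18 was the member that varied most within Sham, with 17, 136 and 73 counts, against 125, 91 and 73 in CKD. On the CPM scale Sham 1, 2 and 3 were at 1.13, 9.50 and 5.14 and CKD 1, 2 and 3 at 6.03, 4.52 and 3.74, so that Sham 1 was the lowest and Sham 2 the highest of the 6 libraries, 8.38-fold apart. The log2 fold change was -0.14 ± 0.67, with a 95% interval of -1.69 to 1.41 (edgeR adjusted p = 0.922), wide enough to hold a change of over 2-fold either way. Leaving out Sham 1 gave -0.68, leaving out Sham 2 gave 0.57, and scaling by totals alone gave 0.30. Sham 2 also had the highest summed level of 6 intercalated cell markers, 2220 CPM against 383 and 676 CPM in Sham 1 and Sham 3. In CKD 1, 2 and 3 that sum was 259, 327 and 477 CPM, the reverse of the order of Il18. Sham 2 had the highest share of mitochondrial counts as well (37.9%, against 8.83% to 15.3% in the other libraries). The part of either in the Il18 value was not tested. Il18 also shares its interval with Bco2 and Tex12 on the opposite strand. Whole gene spans were compared, not exons, and no strand setting is given, so whether reads were shared was not tested. For Bco2 the counts were 7, 30 and 45 in Sham against 63, 46 and 34 in CKD. For Tex12 they were 4, 11 and 9 in Sham against 13, 4 and 3 in CKD.

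Il18bp, the secreted protein that binds and blocks IL-18, was counted 125, 104 and 82 times in Sham against 133, 305 and 78 times in CKD. Its log2 fold change was 0.26 ± 0.50 (edgeR adjusted p = 0.794), or -0.45 without CKD 2. Its ratio to Il18 per gene length was 7.17, 0.765 and 1.12 in Sham and 1.06, 3.34 and 1.07 in CKD. The ratio differed by -0.23 on the log2 scale between the groups (exact two-sided permutation test, p = 0.8), and that sign turned without Sham 1, CKD 1 or CKD 3. Sham 1, where Il18 was lowest, had the highest ratio.

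Levels compared between members. Divided by gene length (RPKM, that is CPM per kilobase of gene length), the members spanned 0.20 to 4.56 RPKM in Sham and 1.12 to 9.94 RPKM in CKD. In Sham the order of mean levels was Il18, Casp4, Gsdmd, Casp1, Il1b, Pycard, Nlrc4, Il1rn, Aim2 and Nlrp3. In CKD it was Casp4, Gsdmd, Pycard, Casp1, Il18, Nlrp3, Nlrc4, Il1b, Il1rn and Aim2. Pycard was the sixth in Sham, at 0.91 ± 0.17 RPKM, and the third in CKD, at 6.84 ± 2.48 RPKM. Nlrp3 was the last in Sham, at 0.20 ± 0.12 RPKM, and the sixth in CKD, at 1.90 ± 0.66 RPKM. Most neighbours in these orders overlapped in their library ranges. The exceptions were Pycard above Nlrc4 in Sham, and Il18 above Nlrp3 in CKD.

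The CKD libraries and the leukocyte markers. CKD 3 was the lowest of the CKD libraries in 9 of the 10 members, where it was so in 40.1% of all genes tested and in 63.4% of the 2893 genes that lay higher in CKD without overlap. The exception was Aim2, with CKD 1 and CKD 3 nearly level. The pan-leukocyte marker Ptprc was also lowest in CKD 3 among the CKD libraries, at 12.2, 13.1 and 17.1 CPM in Sham and 69.9, 47.0 and 29.96 CPM in CKD (fitted log2 difference 1.79 ± 0.34, edgeR adjusted p = 0.0405). Of 14 macrophage and monocyte markers edgeR called 5 higher and 0 lower (13 higher in DESeq2, 2 in limma-voom). Of all genes tested, edgeR called 2.67% higher, DESeq2 7.69% and limma-voom 0.638%. Without overlap, 12 of the markers lay higher in CKD, where 18.8% of all genes tested did so. The summed level of all 14 ran from 99.6 to 211 CPM in Sham and from 317 to 683 CPM in CKD. Ms4a7, 1 of them, had 0 counts in Sham 2. Of 9 T, NK and B cell markers edgeR called 2 higher (4 in DESeq2, 0 in limma-voom), beside the same shares of all genes. The summed level of these 9 was 8.38 to 9.36 CPM in Sham and 23.2 to 40.7 CPM in CKD. Ptprc and both lists lost every edgeR call without Sham 2, Sham 3, CKD 1 or CKD 2. Those fits called 2, 7, 0 and 0 genes in all. The part of these cells in the rise of Pycard and Nlrp3 was not tested, and in bulk tissue more cells of a type and more RNA per cell cannot be told apart.

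Neutrophils are a further source of IL-1 beta. Of 10 neutrophil markers 4 passed the filter on low counts, and 0 were called by edgeR (2 at an unadjusted p under 0.05). DESeq2 called 1 higher and 3 lower. Of all genes tested edgeR called 3.82% and DESeq2 13.9%, either direction. Mpo and Elane, the defining granule enzymes, had 0 counts in all libraries but CKD 1, which had 1 count of each. Lcn2, which injured tubules also make, carried most of the summed level in CKD. The other 9 markers summed to 2.60, 25.9 and 15.5 CPM in Sham and 5.74, 2.14 and 2.20 CPM in CKD, a split of the list made after its values were seen. All 11 defining kidney markers, from Lrp2 and Umod to Nphs1, were detected in every library. Detection does not make the libraries alike. In Sham 1, 2 and 3 Slc12a3 was at 95.1, 1893 and 755 CPM and Lrp2 at 3341, 705 and 4153 CPM. Cdh16 was more even, at 685, 603 and 543 CPM. The part of such differences in the member values was not tested.

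**Figure D3:**
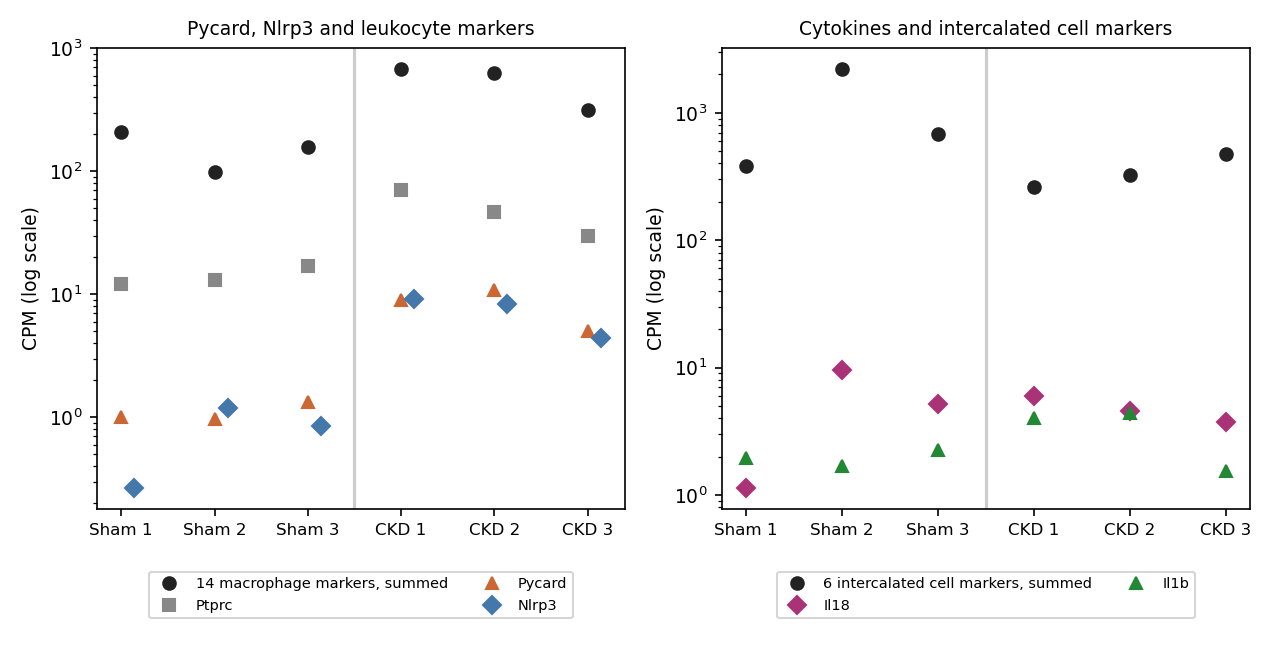
CPM on a log axis in each library: left, Pycard and Nlrp3 with Ptprc and the sum of 14 macrophage markers; right, Il18 and Il1b with the sum of 6 intercalated cell markers. On the left all 4 are higher in each CKD library than in any Sham library and lowest among CKD libraries in CKD 3. On the right Il18 and the intercalated markers are both highest in Sham 2. Among the CKD libraries their order is opposite, with Il18 highest in CKD 1 and the markers highest in CKD 3.

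Other genes of the pathway. Of 50 further genes in 3 lists, 43 passed the filter on low counts. Of these, 3 were called higher and 1 lower, where 2.67% and 1.15% of all genes tested were called. Without overlap 20 lay higher and 5 lower, where 18.8% and 12.4% of all genes tested did so, so the 5 are near the share of all genes. The lists and their calls came after results of these data were known. The 4 calls became 0 in edgeR without Sham 2, Sham 3, CKD 1 or CKD 2, the fits that called 2, 7, 0 and 0 genes in all. At an unadjusted p under 0.05 these fits had 30, 21, 18 and 19 of the pathway genes, where 27.0%, 21.7%, 14.8% and 14.6% of all genes passed. The calls also became 0 with the replicate block (24 at an unadjusted p under 0.05, where 18.7% of all genes passed). They were 1 in limma-voom (Il1r2) and 20 in DESeq2, 16 higher and 4 lower, beside its 2455 genes called in all.

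Among 19 other sensors and upstream triggers, 16 were tested, with a median log2 fold change of 0.94, and edgeR called 2 higher and 0 lower (9 at an unadjusted p under 0.05; 7 higher and 1 lower in DESeq2; 0 in limma-voom). Nlrp1a, a sensor of microbial proteases, rose from 117, 88 and 97 counts to 337, 442 and 286 (a log2 difference of 1.35 ± 0.27, edgeR adjusted p = 0.0426; 0.0634 without CKD 3). Naip5 is of the NAIP family, which engages Nlrc4 once bound to a bacterial ligand. It rose from 2, 4 and 4 counts to 127, 113 and 18 (log2 fold change 4.15 ± 0.84, edgeR adjusted p = 0.0448, or 0.0557 without Sham 1). Its relative Naip6, with 0, 3 and 2 counts in Sham against 85, 128 and 14 in CKD, missed the threshold (edgeR adjusted p = 0.0536), and reads of these close copies can be shared, so both are uncertain, as is Nlrp1a beside Nlrp1b. Both NAIP genes were lowest in CKD 3 among the CKD libraries, as was Nlrc4.

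Of the 3 cofactors of Nlrp3 named here, Nek7, Txnip and P2rx7, edgeR called none with all libraries. Nek7, the kinase that bridges NLRP3 subunits, was at 81.7 ± 7.45 CPM in Sham and 83.1 ± 2.40 CPM in CKD, a log2 difference of 0.02 with a 95% interval of -0.39 to 0.44 (edgeR adjusted p = 0.949), which became 0.44 when only totals were scaled and -0.09 without Sham 2. Txnip, the thioredoxin-binding protein that links oxidative stress to NLRP3, was at 800, 2190 and 954 CPM in Sham and 399, 516 and 471 CPM in CKD, lower without overlap (log2 fold change -1.51 ± 0.45, edgeR adjusted p = 0.0976). Txnip was called lower in DESeq2 (log2 fold change -1.55, DESeq2 adjusted p = 0.00429) and in edgeR without Sham 1 (-1.82, edgeR adjusted p = 0.0485). P2rx7, the ATP-gated channel whose opening lets potassium out, overlapped between the groups, with 12, 67 and 64 counts in Sham against 149, 118 and 52 in CKD (fitted log2 difference 0.66 ± 0.67, edgeR adjusted p = 0.599; 0.14 without Sham 1).

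Of 16 further genes of IL-1 family signalling 14 were tested (median log2 fold change 0.51), 0 rose and 1 fell in edgeR (10 at an unadjusted p under 0.05; 4 higher and 2 lower in DESeq2; 0 higher and 1 lower in limma-voom). The gene that fell was Il1r2, the decoy receptor that binds IL-1 without signalling, with 37, 42 and 46 counts in Sham against 2, 9 and 1 in CKD, or 2.47, 2.93 and 3.24 against 0.10, 0.45 and 0.05 CPM. Its log2 fold change was -3.81 ± 0.75 (95% interval -5.56 to -2.06; edgeR adjusted p = 0.0426). The log2 fold change was -5.14 without CKD 2, where most of the CKD counts lay, and the adjusted p was 0.0772 without CKD 3. Il1r1, the signalling receptor, was at 32.9 ± 19.3 CPM in Sham and 31.1 ± 5.50 CPM in CKD (fitted log2 difference -0.08, 95% interval -1.0 to 0.83, edgeR adjusted p = 0.922; 0.33 when only totals were scaled), and Sham 3 was its highest library. Il1rl1, the receptor of IL-33, was at 2.44 ± 0.57 and 11.6 ± 6.22 CPM without overlap, just short of the threshold (edgeR adjusted p = 0.0532). Irak2, a kinase downstream of these receptors, was at 93.5 ± 26.5 CPM in Sham and 45.8 ± 1.69 CPM in CKD, also short of it (edgeR adjusted p = 0.0563).

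Of 15 other genes of lytic cell death 13 were tested (median log2 fold change 0.91), 1 rose and 0 fell in edgeR (8 at an unadjusted p under 0.05; 5 higher and 1 lower in DESeq2; 0 in limma-voom). Serpinb9, an intracellular inhibitor of granzyme B, rose from 191, 136 and 115 counts to 811, 711 and 400 (log2 fold change 1.65 ± 0.32, edgeR adjusted p = 0.0415). Zbp1, a sensor of Z-form nucleic acids, had 8, 12 and 3 counts against 147, 98 and 32 (edgeR adjusted p = 0.0583), and Casp12, a caspase of the inflammatory group, had 36, 12 and 28 against 236, 196 and 70 (edgeR adjusted p = 0.0716). Casp8, the initiator of death receptor signalling, was at 4.81 ± 3.0 and 14.7 ± 3.93 CPM without overlap (edgeR adjusted p = 0.0928). Gsdme, the gasdermin that caspase-3 cuts, was at 20.8 ± 9.56 CPM in Sham and 21.1 ± 6.30 CPM in CKD, with a 95% interval of -0.95 to 0.98 on the log2 scale and a sign that turned with the scaling. Ninj1, which ruptures the membrane after gasdermin pores have formed, was at 111 ± 16.2 CPM and 116 ± 19.1 CPM (95% interval -0.45 to 0.58).

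**Figure D4:**
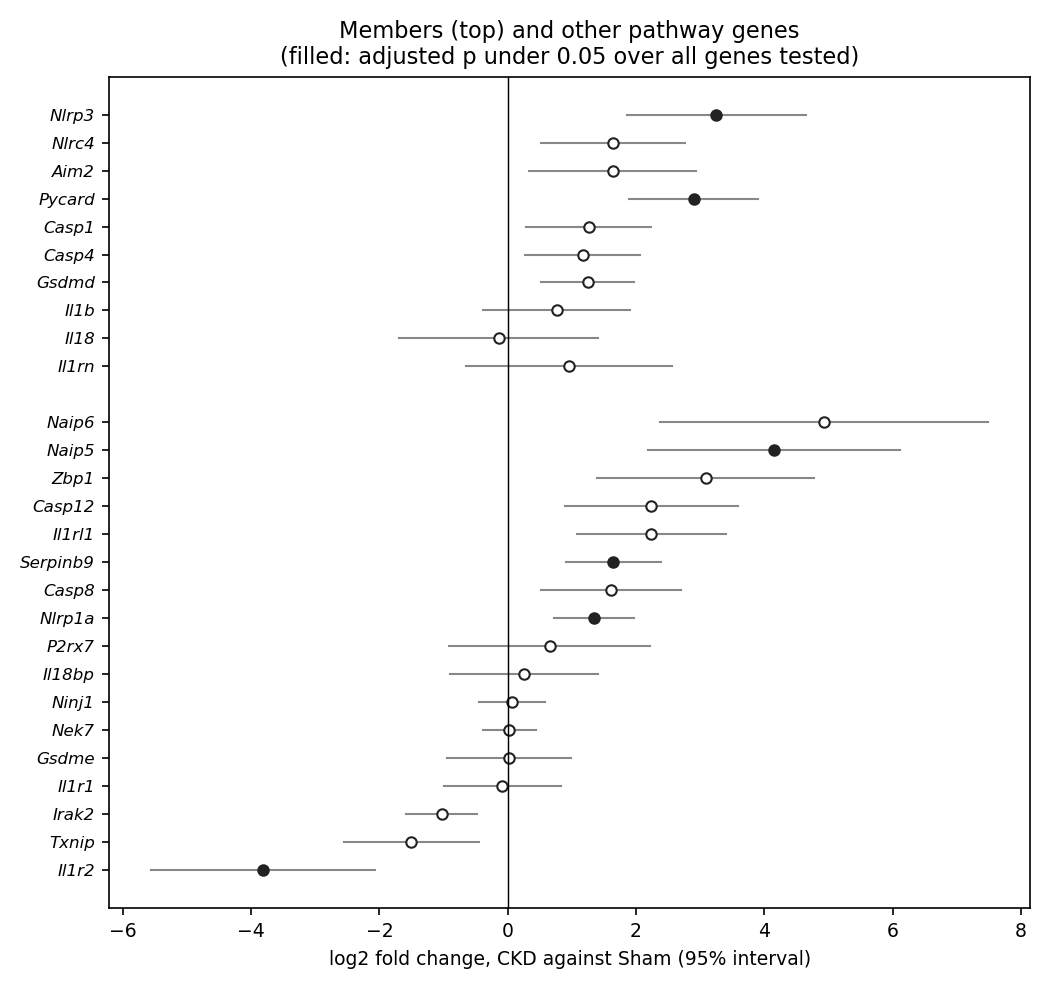
Log2 fold change of CKD against Sham with its 95% interval for the 10 members (top) and 17 other named genes of the pathway (below, sorted by fold change); filled points have an adjusted p under 0.05. The filled points are Nlrp3, Pycard, Naip5, Serpinb9 and Nlrp1a to the right of 0 and Il1r2 to the left.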

How the data were processed

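RNA of kidney tissue was isolated with TRIzol and made into libraries with the VAHTS Universal V5 kit, per the labels' protocols. The authors deposited raw counts per gene, with no normalization, beside gene lengths and coordinates. Per the submitters' processing notes, fastp 0.20.1, HISAT2 2.1.0, HTSeq 0.11.2 and Rnor_6.0 were used, with no roles; for the strand setting the sources used here give nothing. Totals ran from 15918035 to 17503644 counts per library. Libraries of a group differed more than sampling noise allows (chi-square over its degrees of freedom 30.9 to 330.1), so none was a copy. All 6 columns matched a sample title.

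Genes were kept by filterByExpr (minimum count 10, minimum total 15), which left 15371, all 10 members among them. They were scaled by TMM and tested with a robust quasi-likelihood model with group as its only term (edgeR 4.0.16, R 4.3.3), adjusted by Benjamini-Hochberg over all genes tested. The SE of a log2 fold change was back-calculated from its size and the F statistic of the quasi-likelihood test. It was not taken from the model. The intervals of log2 fold changes were built from these SEs, so both are approximate, most of all for genes with few counts. The TMM factors were 0.862, 0.837 and 0.893 in Sham and 1.19, 1.15 and 1.13 in CKD. Mitochondrial counts made up 14.4%, 37.9% and 15.3% of the Sham totals and 8.88%, 8.83% and 10.8% of the CKD totals. Neither overlapped between the groups, so group and these differences cannot be told apart. CPM and RPKM were computed from the deposited counts and TMM-scaled totals. The 2 ratios were tested by exact permutation over libraries with 0.5 added to each count (scipy 1.17.1). On simulated counts for this comparison (15371 genes, 200 of them changed) the model recovered 2 of 100 changes of 2-fold and 60 of 100 of 4-fold and called 8 unchanged genes. The adjustment depends on how many genes change, and 587 were called in the data, so these recoveries hold for the simulated setting only. A change of about 2-fold that did not pass is not shown to be absent. The alternatives were other scalings (RLE, upper-quartile, library totals alone), other filters, no robust step, DESeq2 1.42.0, limma-voom (limma 3.58.1), removal of mitochondrial genes, a replicate block and each library left out. Counts carry no molecular identifiers, so intervals on counts and floors cover counting error only.

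The members and lists were chosen with earlier results of these data known. Named were all members; of each other list the genes past the threshold and the 3 with the smallest p; and Il18bp, Il1r1, Il1r2, Gsdme, Casp8, Nek7, Txnip, P2rx7 and Ninj1 whatever their values. Genes named beyond these (Il1a, Bco2, Tex12, Nlrp1b and markers) were chosen after their values were seen.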

Additional observations from a re-analysis of the deposited data

How the results depend on the processing

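Pycard and Nlrp3 kept their direction in all 16 alternative fits and their call in 10. The count of members called, 2, was 6 with library totals alone and 6 in DESeq2, and 0 to 2 with 1 library left out. It was 0 in limma-voom and 0 with the replicate block (7 and 6 at an unadjusted p under 0.05, where 23.4% and 18.7% of all genes passed). All genes called, 587, became 2228 with library totals alone (2047 higher and 181 lower), 2455 in DESeq2, 164 in limma-voom, 10 with the replicate block and 0 to 1711 with 1 library left out. The other pathway genes called, 4, became 7 with upper-quartile factors, 22 with library totals alone, 8 without a filter, 20 in DESeq2, 1 in limma-voom, 0 with the replicate block and 0 to 7 with 1 library left out. The median log2 fold change of the members stayed between 1.10 and 1.68. Library totals alone moved the median of all genes from -0.01 to 0.41. The cause of these changes was not tested.

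Signs turned only in values far from the threshold. The log2 fold change of Il18 was 0.30 with library totals alone, 0.30 in limma-voom and 0.17 with the replicate block, and ran from -0.68 to 0.57 with 1 library left out. That of Il1r1 was 0.33, 0.055 and 0.062 in the same 3 fits and ran from -0.35 to 0.45. With RLE, no filter, DESeq2 and mitochondrial genes removed, Gsdme was at -0.029, -0.005, -0.022 and -0.024 and Nek7 at -0.027, -0.005, -0.018 and -0.026. Leaving out 1 library gave -0.35 to 0.24 for Gsdme, -0.088 to 0.05 for Nek7, -0.092 to 0.143 for Ninj1 and -0.45 to 0.60 for Il18bp. It gave -0.27 to 0.36 for the ratio of Il1rn to Il1b and -0.86 to 0.75 for that of Il18bp to Il18.

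Libraries with the same replicate number did not deviate together (correlations of -0.21, 0.01 and -0.16 over all genes), so the numbers were not taken as pairs. Sham levels of Nlrp3, Aim2, Pycard and Naip5 rest on 2 to 19 counts per library, which limits the precision of their fold changes.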
